A study of Mus musculus with 6 samples.

Results

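G protein-coupled receptors (GPCRs) of the oligodendrocyte (OL) lineage were examined at the transcript level in mouse primary OL precursor cells (mOPCs) after knockdown of Qk. The 9 genes are S1pr1, S1pr3, S1pr5, Lpar1, Gpr37, Gpr37l1, Gpr56, Gpr62 and Gprc5b. They were chosen by symbol as receptors of precursors and maturing OLs, by a rule that uses no measured value but was written with earlier results of these data known. All 9 were present among the 23038 genes quantified, and 8 of them were among the 12505 genes with enough signal to be tested. In control cells Gpr37l1 and Gpr56 were the most abundant of the 9, and S1pr5 and S1pr3 the least. After Qk knockdown Lpar1, S1pr5, S1pr1 and Gprc5b fell and passed the cutoffs, as did 17.2% of all tested genes. The other tested receptors did not pass them. S1pr5, with low counts, had enough signal to be tested through the control libraries. It missed the cutoffs in some fits that left out a library.

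The study purified mOPCs from mouse embryos by immunopanning and transfected the cultures with control siRNAs (siNC) or with siRNAs against Qk (siQk), and polyadenylated RNA was sequenced 72 h later. Qk encodes the Qki RNA-binding proteins, which act in splicing, stability and transport of mRNA in glial cells. There were 3 libraries in each group, described by the labels as biological replicates, and no group carried a mutation or another treatment. The siQk group combined 3 different siRNAs, and which of them each library received is not given in the sources used here. The mouse strain, the sex of the embryos and whether a culture pooled several embryos are also not given there.

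GPCRs span the plasma membrane and pass an extracellular signal to heterotrimeric G proteins, whose alpha and beta-gamma subunits then act on enzymes, channels and small GTPases. The lipid mediators lysophosphatidic acid (LPA) and sphingosine 1-phosphate (S1P) are ligands of the Lpar and S1pr families, and in OLs their receptors are known for effects on process retraction, migration and survival. Gpr37 and Gpr56 are known from mutant mice as receptors that affect the timing of OL differentiation and the proliferation of OPCs, respectively.

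The Qki proteins bind the RNA element ACUAAY, so the annotated 3′UTRs of the receptors were searched for its DNA spellings ACTAAC and ACTAAT on the transcript strand. Lpar1, which showed the lowest fold change, held 3 matches in a 3′UTR of 2078 bases, or 1.44 per kb beside 0.3615 per kb over all genes. Of the 2810 genes with a 3′UTR of similar length, 48.8% held at least 1. Gprc5b held 1 match in 3112 bases (63.1% of genes with similar 3′UTRs held at least 1), and Gpr56, with a small and uncalled difference, held 1 match in 1230 bases (32.6%). Gpr37 held 1 match in 1538 bases (38.4%) and S1pr3 held 1 in 2876 bases (60.3%). The shortest annotated 3′UTRs of Gpr37 (1016 bases) and Gprc5b (180 bases) held 0 matches. The site of Gprc5b lies 79 bases after the stop codon in the longest 3′UTR. Its shortest 3′UTR is therefore not simply the first 180 bases of the longest. No match was found in the 3′UTRs of S1pr1 (1362 bases), S1pr5 (1014 bases), Gpr37l1 (646 bases) or Gpr62 (689 bases). Across 20657 genes with a 3′UTR, 32.6% held at least 1 match. The sites of Lpar1, Gprc5b and Gpr56 are shown here as a receptor with several matches, another that fell, and a further one that was not called. Each is given 5′ to 3′ on the transcript strand, with the match in capitals, from GENCODE M21 on GRCm38 (mm10).
Lpar1, minus strand, chr4:58437212-58437241, 104 bases after the stop codon: cctgtacttaacACTAACcaatggcagtat
Lpar1, minus strand, chr4:58437065-58437094, 251 bases after the stop codon: cgtgtagcattcACTAACtagacttaaaag
Lpar1, minus strand, chr4:58435278-58435307, 2038 bases after the stop codon: attgaaaagcatACTAATtgaaccttaata
Gprc5b, minus strand, chr7:118975063-118975092, 79 bases after the stop codon: gagggcgaaatcACTAACcatggcagagac
Gpr56, plus strand, chr8:95013905-95013934, 930 bases after the stop codon: gaattctgtcctACTAACgtacagtgagca
A match is a description of the sequence and not evidence of binding, and the receptors that were called include genes with and without a match.

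The libraries held between 58166490 and 141045937 tags, the authors' estimated counts per gene. In siNC replicate 1, which was the shallowest library, Rn45s, a ribosomal RNA gene, took 3.12% of the tags, while its share elsewhere was 0.169% to 0.389%. Qk stood at 209.2, 206.4 and 163.0 RPKM (tags relative to exon length and library total) in the siNC libraries and at 51.3, 76.6 and 36.2 RPKM in the siQk libraries, a fall by 1.98 on the log2 scale (SE 0.28, FDR 0.00311 in edgeR's quasi-likelihood test). Markers of OL lineage cells prevailed: the summed RPKM of 10 OPC markers was 965 to 1007 in siNC and 1089 to 1292 in siQk. Of these, 1 was called lower (Lhfpl3) and 3 were called higher (Cspg4, Olig2 and Olig1, the last not without siNC replicate 2, siQk replicate 1 or siQk replicate 2). The sum of 11 myelin and mature OL genes was 3455 to 6034 in siNC, lowest in siNC replicate 3, and 1466 to 2197 in siQk, and 9 of 10 tested were called lower, 4 without siQk replicate 1 and 4 without siQk replicate 2. Mobp lost its call without siNC replicate 2 or any siQk library. Mal, also among the 9, held 216, 749 and 148 tags in siNC but 19, 4 and 35 in siQk. It reached the limit for testing through the siNC libraries. The sum of 8 markers of committed and premyelinating OLs was 2792 to 4311 in siNC and 1541 to 1897 in siQk, with 1 called lower and 2 higher. The 1 lower was Sirt2, the most abundant of them, from 2081 ± 564 to 650 ± 109 RPKM. Against the sum, Nkx2-2 and Bmp4 were called higher, the latter not without siNC replicate 3. Microglial (C1qa and C1qb listed at 0), fibroblast and endothelial markers (Cldn5 listed at 0) summed to at most 5.10 RPKM in any library. Astrocyte markers summed to 298.7 to 419.3 RPKM in siNC and 296.9 to 320.6 in siQk (Gja1 near 0), and 4 of 9 were called lower and 1 higher. Those lower were Gfap, from 69.1 ± 28.0 to 9.85 ± 1.26 RPKM, Slc1a3, Aldh1l1 and Slc1a2, and that higher was Sox9, whose call was lost when siNC replicate 2, siNC replicate 3, siQk replicate 2 or siQk replicate 3 was left out. The part of these markers in the differences of the receptors was not tested. Neuronal markers summed to 138.2 to 208.2 and 109.2 to 156.6 RPKM, mostly Tubb3 (Slc17a6 listed at 0). Of 8 tested, 0 were called lower (1 at an unadjusted p under 0.05, 0 in DESeq2) and 2 were called higher against the sum, Snap25 from 0.751 ± 0.124 to 5.18 ± 2.16 RPKM and Nefl from 1.88 ± 0.41 to 6.36 ± 0.25 RPKM.

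The 9 receptors covered a wide range of transcript levels, which RPKM allows to be compared between genes because it is scaled by exon length. In siNC libraries the mean RPKM, with its SD over 3 libraries, was 135.2 ± 26.3 for Gpr37l1 and 75.4 ± 9.52 for Gpr56, ranks 390 and 906 of 23038 genes. A middle group followed, with 15.9 ± 2.38 for Gprc5b, 12.97 ± 2.30 for S1pr1, 9.60 ± 5.23 for Gpr37, 4.70 ± 2.51 for Lpar1 and 3.20 ± 0.55 for Gpr62. Each gene of that group overlapped its neighbour in the order, but Gprc5b and S1pr1 lay wholly above Lpar1 and Gpr62, and Gpr37 lay wholly above Gpr62. S1pr5 (0.688 ± 0.491) and S1pr3 (0.175 ± 0.0508) lay below all of them and apart from each other. In siQk libraries the order was the same except that Gpr62 (4.21 ± 0.267) came before Gpr37 (4.18 ± 1.43) and Lpar1 (0.795 ± 0.336). There, overlap remained between Gpr62 and Gpr37 and between S1pr5 (0.133 ± 0.0761) and S1pr3 (0.1002 ± 0.0138), while the remaining neighbours were apart. Gpr62 shares exon bases with the far more abundant Pcbp4, and how much of its level and place in the order stems from that gene was not tested.

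**Figure D1:**
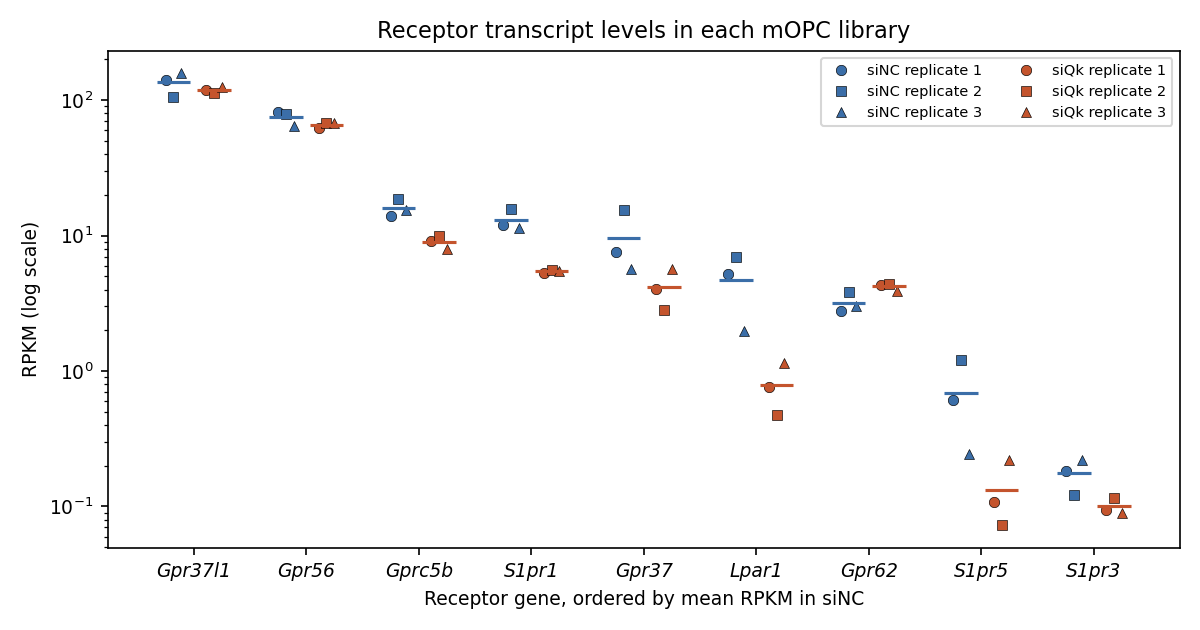
RPKM on a log axis for each of the 9 receptor genes in each library, siNC and siQk side by side, with marker shapes for replicate 1 to 3 and horizontal lines at the group means. Gpr37l1 and Gpr56 sit at the top in both groups, S1pr3 and S1pr5 at the bottom, and Lpar1 and S1pr5 show the widest gap between group means.

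Calls rested on edgeR's quasi-likelihood test, with P under 0.01 together with an FDR under 0.1 adjusted over all 12505 genes, and a negative log2 fold change is a lower level in siQk. By this rule 4 of the 8 tested receptors were called, all lower in siQk, against 31.0% of all tested genes called, 17.2% called lower and 13.8% called higher. None of the receptors was called higher (0 at an unadjusted p under 0.05, and 0 in DESeq2), whereas 6 were lower at an unadjusted p under 0.05 and 5 were called lower in DESeq2. S1pr5 is among the 4 although it passed the filter through the siNC libraries, and with a higher filter, an average logCPM over 1, it was not tested and 3 of 7 receptors were called. The median log2 fold change of the 8 was -1.16, beside 0.010 over all tested genes. The RPKM ranges of the groups did not overlap for 6 of the 8, where 58.3% of all tested genes had ranges apart. TMM factors were 0.899 to 0.987 in siNC and 1.04 to 1.07 in siQk, so log2 fold changes lie below those read directly from RPKM. Scaled by library size alone, the median over all genes moved to 0.16 and the split of calls from 2149 lower and 1730 higher to 1365 lower and 2989 higher (1785 and 2234 with the upper quartile), and the same 4 receptors were called lower under both scalings. With bulk RNA, fewer cells of a type and less RNA per cell cannot be told apart.

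**Figure D2:**
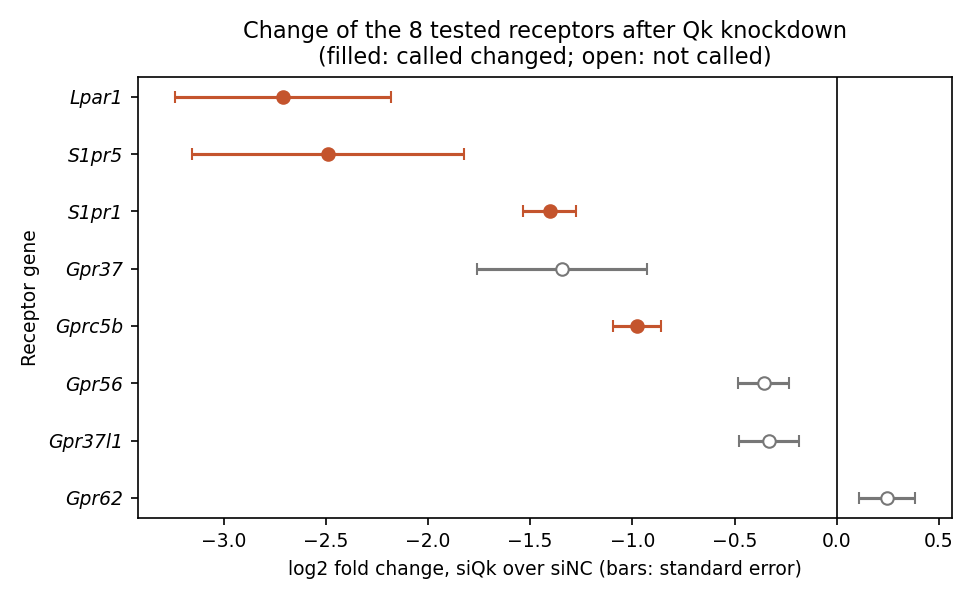
log2 fold change of siQk over siNC for the 8 tested receptor genes, with bars for the standard error, filled points for genes called changed and open points for the rest. Lpar1, S1pr5, S1pr1 and Gprc5b are filled and lie below 0, Gpr37 lies below 0 without being called, and only Gpr62 lies above 0.

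Lysophospholipid receptors made up 3 of the 4 calls (Lpar1, S1pr1 and S1pr5), beside 17.2% of all tested genes called lower. S1pr5 reached the limit for testing through the siNC libraries, and its call was lost in some fits that left out a library. Of the other LPA and S1P receptors 4 were tested and 0 were called, at a median log2 fold change of 0.10. The calls thus lay in these genes and not across both families. S1pr1, the Gi-coupled S1P receptor (Entrez 13609, chr3:115710433-115715072, minus strand), was at 11.9, 15.6 and 11.4 RPKM in the siNC libraries and at 5.33, 5.53 and 5.46 RPKM in the siQk libraries. All siQk libraries were below all siNC libraries, and the siQk values were nearly equal to one another. Its log2 fold change was -1.41 (SE 0.13, FDR 0.000913 in edgeR's quasi-likelihood test), a 2.65-fold lower level. S1pr1 had the lowest P of the receptors and stayed called in all 18 alternative settings, with log2 fold changes of -1.51 to -1.25.

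Lpar1, the LPA receptor best known in myelinating OLs (Entrez 14745, chr4:58435255-58553898, minus strand), was at 5.20, 6.91 and 1.98 RPKM in siNC and at 0.762, 0.477 and 1.15 RPKM in siQk. The groups did not overlap, with siNC replicate 3 the low control library and siQk replicate 3 the high knockdown library. The log2 fold change was -2.71 (SE 0.53, FDR 0.00940), a 6.55-fold lower level, and it was the lowest among the receptors tested. It stayed called in 17 of 18 alternative settings, the exception being the fit with the replicate number as a block. Its libraries were also among the more variable, the highest siNC value being 3.50 times the lowest.

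S1pr5, the S1P receptor known for its expression in OLs (Entrez 94226, chr9:21242912-21248443, minus strand), was at 0.606, 1.22 and 0.243 RPKM in siNC and at 0.108, 0.0727 and 0.219 RPKM in siQk. These values rest on 88, 336 and 80 tags in siNC and on 38, 15 and 69 tags in siQk. The groups were apart by a narrow margin, between siNC replicate 3 and siQk replicate 3. The log2 fold change was -2.49 (SE 0.67, FDR 0.0270). Its average logCPM of 0.0649 was just above the limit of 0, which it reached through the siNC libraries, and without siNC replicate 1 or siNC replicate 2 it was not tested. Without siQk replicate 1 or siQk replicate 2 it was not called, at log2 fold changes of -2.34 and -2.22.

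S1pr3, a further S1P receptor (Entrez 13610, chr13:51408639-51422797, plus strand), was below the limit for testing, at 0.184, 0.121 and 0.221 RPKM in siNC and 0.0949, 0.116 and 0.0899 RPKM in siQk. The level was low in all libraries, with 43 to 131 tags each. The ranges did not overlap, but siNC replicate 2 and siQk replicate 2 differed by only 0.0047 RPKM. When no filter on low counts was applied, its log2 fold change was -0.94 (SE 0.29, FDR 0.0474) and it was not called.

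Gpr37 and Gpr37l1 are related receptors for which the secreted protein prosaposin has been proposed as a ligand, the former expressed in OLs and the latter mainly in astrocytes and OPCs. Gpr37 (Entrez 14763, chr6:25665878-25690729, minus strand) was at 7.59, 15.5 and 5.67 RPKM in siNC and at 4.07, 2.81 and 5.66 RPKM in siQk. The groups touched, since siNC replicate 3 (5.672) and siQk replicate 3 (5.663) were practically equal. Its log2 fold change of -1.34 (SE 0.42) had an FDR of 0.0434 in edgeR's quasi-likelihood test and missed the cutoff on the unadjusted P of 0.01. It was called in 7 of 18 alternative settings, among them DESeq2 and the fit without siNC replicate 3. Without siNC replicate 2, its highest library, the log2 fold change was -0.83 (FDR 0.0937).

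Gpr37l1 (Entrez 171469, chr1:135160234-135167681, minus strand) was at 141.4, 106.4 and 157.9 RPKM in siNC and at 119.7, 112.9 and 125.8 RPKM in siQk. The siQk libraries lay inside the siNC range. Its log2 fold change was -0.33 (SE 0.15, FDR 0.118), and it was not called. It was called in 1 of 18 alternative settings, the fit without siNC replicate 2, at -0.49.

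Gpr56, an adhesion GPCR now named Adgrg1 that is known to keep OPCs proliferating through G12/13 and RhoA (Entrez 14766, chr8:94974751-95014217, plus strand), was at 82.2, 79.5 and 64.6 RPKM in siNC and at 61.8, 67.8 and 67.5 RPKM in siQk. The groups overlapped, with siNC replicate 3 below the upper siQk libraries. The log2 fold change was -0.36 (SE 0.13, FDR 0.0625), and it was not called. Without siNC replicate 3 it was called, at -0.48.

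Gpr62 and Gprc5b are orphan receptors, Gpr62 a gene described in mature OLs and Gprc5b a class C receptor of the retinoic acid-induced family. Gprc5b (Entrez 64297, chr7:118972047-118995211, minus strand) was at 13.9, 18.5 and 15.4 RPKM in siNC and at 9.18, 9.86 and 7.92 RPKM in siQk. The groups did not overlap, and no library stood far from its group. Its log2 fold change was -0.98 (SE 0.12, FDR 0.00193), a 1.97-fold lower level. Of the 4630 annotated exonic bases of Gprc5b, 606 are shared with Iqck on the opposite strand, and the library kit does not mark strand. The shared bases make up 16.6% of the exon length of Iqck. The tags of Iqck amounted to 13.1% to 14.4% of those of Gprc5b in every library, and the log2 fold change of Iqck was -0.99 (SE 0.14, FDR 0.00305). Reads from the shared bases cannot be told apart, and how much of the level of either gene stems from the other was not tested.

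Gpr62 (Entrez 436090, chr9:106463962-106465938, minus strand) was at 2.78, 3.82 and 3.00 RPKM in siNC and at 4.32, 4.41 and 3.91 RPKM in siQk. All siQk libraries were above all siNC libraries in RPKM, by 0.089 RPKM at the nearest pair. After TMM scaling its log2 fold change was 0.25 (SE 0.14, FDR 0.194), and it was called in 0 of 18 alternative settings. Gpr62 shares 51 bases of exon with the end of Pcbp4 on the opposite strand. Pcbp4 was far more abundant, at 181.3, 215.2 and 172.0 RPKM in siNC and 236.5, 236.6 and 242.6 in siQk (log2 fold change 0.18, SE 0.099, FDR 0.189). The tags of Gpr62 amounted to 1.41% to 1.72% of those of Pcbp4, while the shared bases make up 2.38% of the exon length of Pcbp4. How much of the level of Gpr62 stems from Pcbp4 was not tested.

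Lpar1, S1pr5 and Gpr37 ranked the 6 libraries in the same way, a pattern that was noticed after the values were seen. From high to low the order was siNC replicate 2, siNC replicate 1, siNC replicate 3, siQk replicate 3, siQk replicate 1 and siQk replicate 2. The order was taken from Lpar1 itself and then counted. It occurred in 3 of 8 tested receptors, in 138 of 12505 tested genes (1.10%) and in 128 of the 2149 genes called lower (5.96%). Lpar1 is part of each count by definition, so the counts describe the pattern and do not test it. Gpr37 met the order by a margin of 5.672 against 5.663 RPKM between siNC replicate 3 and siQk replicate 3. Of the 10 tested myelin genes, Mobp and Mal showed it. Outside the receptors and the myelin genes, Psap, Gpr97 and Rgs16 of the lists showed it too. Mobp, a myelin protein gene, was at 5.12, 25.2 and 1.61 RPKM in siNC and 0.431, 0.146 and 0.859 RPKM in siQk. S1pr1 and Gprc5b, which also fell, had siQk libraries within 1.04 and 1.25 times of each other, against 2.40 times for Lpar1 and 3.01 times for S1pr5. The sum of the myelin genes moved with this order in part, being lowest within siNC in replicate 3 and highest within siQk in replicate 3. Its part in the differences of the receptors was not tested.

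**Figure D3:**
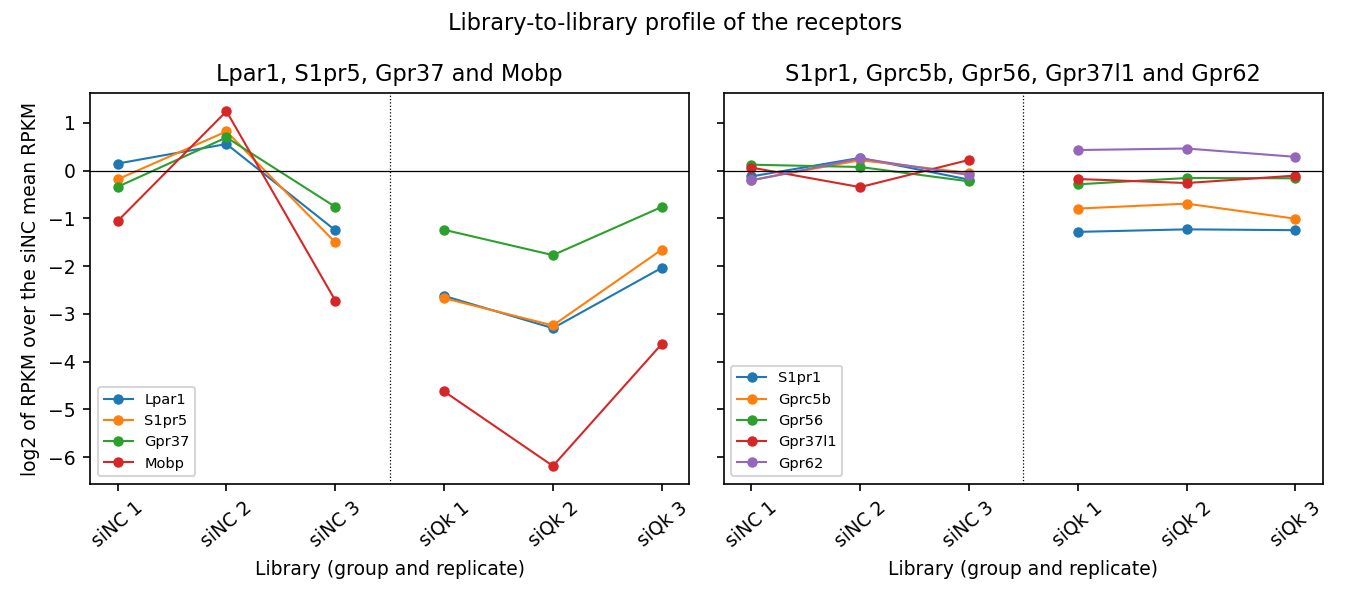
log2 of the RPKM in each library over the siNC mean RPKM of the gene, for Lpar1, S1pr5, Gpr37 and the myelin gene Mobp in the left panel and for S1pr1, Gprc5b, Gpr56, Gpr37l1 and Gpr62 in the right panel, with lines joining libraries of a group only to aid the eye. In the left panel siNC replicate 2 is the highest library and siQk replicate 2 the lowest for all of the genes, while S1pr1 in the right panel is flat across the siQk libraries.

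Ratios of a receptor pair were formed within each library, and 5 ratios were compared between groups with a pseudocount of 0.1 RPKM. That pseudocount is about the level of S1pr3 and of S1pr5 in siQk, so ratios with these genes depend on it. The two-sided exact permutation test used here has 0.1 as its smallest p with 3 libraries a group. The log2 ratio of S1pr3 over S1pr1 was -5.57 ± 0.52 (SD, n = 3) in siNC and -4.79 ± 0.084 in siQk, a difference of 0.78 (exact permutation p = 0.1, adjusted 0.333 over the 5 ratios). Without a pseudocount, an alternative chosen after seeing the data, the difference was 0.47 (exact permutation p = 0.4) and the ranges overlapped, so the separation rests on the pseudocount. The ratio of Lpar1 over S1pr1 differed by -1.10 (exact permutation p = 0.2, adjusted 0.333), and siNC replicate 3 at -2.47 lay within the siQk range of -3.29 to -2.16. For Gpr37 over Gpr37l1 the difference was -0.94 (exact permutation p = 0.2, adjusted 0.333). S1pr5 over S1pr3 differed by -1.16 (exact permutation p = 0.3, adjusted 0.375) and S1pr5 over S1pr1 by -0.38 (exact permutation p = 0.6, adjusted 0.6). The ranges of these 4 ratios overlapped with and without the pseudocount, and the sign of the S1pr5 to S1pr1 difference turned to 0.57 with a pseudocount of 1 RPKM.

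The genes closest to Lpar1 and to Gpr62, the receptors with the lowest and the highest fold change, were found by Pearson correlation of log2 CPM over the 6 libraries among the genes with an average logCPM over 3 (10038 for Lpar1 and 10039 for Gpr62). For Lpar1 they were Map6d1 (r = 0.999), the myelin protein gene Pmp22 (r = 0.998) and Mtap1a (r = 0.997), a microtubule-associated protein gene. For Gpr62 they were Tmsb10 (r = 0.994), Fam40a (r = 0.992) and Arhgap26 (r = 0.989). Gpr62 was not called, and the part of Pcbp4 reads in its profile was not tested. With 6 libraries that share a group difference and their depth, such values describe a shared profile and carry no p.

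Around the lysophospholipid receptors, the other receptors of the families and the enzymes of LPA and S1P turnover were read from the same fit. For each list that follows, the shares over all tested genes were 17.2% called lower and 13.8% called higher. Of 7 other LPA and S1P receptors 4 were tested, and 0 were called (0 at an unadjusted p under 0.05 and 0 in DESeq2), with a median log2 fold change of 0.10. The highest of them was S1pr2, with 2.63 ± 0.33 RPKM in siNC cells and 3.25 ± 0.35 in siQk cells (log2 fold change 0.15, SE 0.12, FDR 0.336). Of 14 genes for LPA and S1P synthesis, transport and breakdown 10 were tested: 5 were called lower and 0 higher (0 higher at an unadjusted p under 0.05 and 0 in DESeq2), and the median was -0.54. With library size alone 4 of them were called lower.

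Enpp2, which encodes the LPA-producing enzyme autotaxin and was the most abundant gene of the list, went from 246.7 ± 48.9 to 175.0 ± 9.74 RPKM (log2 fold change -0.64, SE 0.13, FDR 0.0105). Sgpl1, the lyase that degrades S1P, went from 58.2 ± 6.54 to 29.7 ± 3.75 RPKM (-1.12, SE 0.11, FDR 0.00105). The lipid phosphate phosphatase genes Ppap2c (-1.94, SE 0.36, FDR 0.00809) and Ppap2b (-0.88, SE 0.13, FDR 0.00374), whose products dephosphorylate LPA and S1P, and the lipase gene Liph (-1.16, SE 0.31, FDR 0.0257) fell as well. The call of Liph was lost with library size alone and when siNC replicate 1 or any siQk library was left out. The list thus held genes for both production and breakdown of the ligands among those that fell.

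Of 3 genes for proposed ligands of Gpr37, Gpr37l1 and Gpr56, both that were tested were called lower. Psap, which encodes prosaposin, was at 546.8, 548.1 and 539.9 RPKM in siNC and at 389.2, 382.2 and 408.6 in the siQk libraries (log2 fold change -0.62, SE 0.079, FDR 0.00236). The libraries of each group were close together and the groups were far apart. Tgm2, which encodes a transglutaminase reported to bind Gpr56, went from 1.36 ± 0.59 to 0.308 ± 0.025 RPKM (-2.29, SE 0.29, FDR 0.00233). Of 8 close relatives of the orphan and adhesion receptors, both that were tested were called lower, the adhesion GPCR genes Gpr126 (-1.79, SE 0.42, FDR 0.0169) and Gpr97 (-1.14, SE 0.30, FDR 0.0267). Both stayed below 4 RPKM in every library, Gpr97 was below 1 CPM in every siQk library and was not called with library size alone, and neither was called without siQk replicate 1 or without siQk replicate 3.

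Among 18 other receptors described in the OL lineage 17 were matched and 12 tested, of which 4 were called lower and 0 higher (2 higher at an unadjusted p under 0.05, and 1 in DESeq2), with a median of -0.55. P2ry12, a purinergic receptor gene, had a log2 fold change of -3.16 (SE 0.61, FDR 0.00886) at a low level of 1.69 ± 1.34 RPKM in siNC and 0.208 ± 0.0706 in siQk. It held 91, 829 and 368 tags in siNC but 50, 36 and 85 in siQk, and passed the filter through the siNC libraries. Ednrb, the endothelin receptor known to act on OPC differentiation, was far more abundant, at 230.6 ± 38.9 RPKM in siNC and 74.2 ± 3.85 in siQk (-1.78, SE 0.11, FDR 0.000375). The thrombin receptor gene F2r (-1.21, SE 0.32, FDR 0.0270) was the third by fold, and it was not called in any fit that left out a siQk library. Gpr17, a marker of committed OPCs, was at 111.0 ± 17.3 and 136.2 ± 27.7 RPKM and was not called (0.14, SE 0.19, FDR 0.595).

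The signal transducers held calls in both directions, beside 17.2% of all tested genes called lower and 13.8% called higher. All 14 G protein alpha and beta subunit genes were tested: 6 were called lower and 2 higher, with a median of -0.21, and 3 and 3 with library size alone. Gnao1, a Go alpha subunit gene, fell by 1.17 on the log2 scale (SE 0.22, FDR 0.00801), Gna13 of the G12/13 class by 0.77 (SE 0.077, FDR 0.00116) and Gnb4 by 0.58 (SE 0.092, FDR 0.00477). Gnai2, the most abundant of them at 311.2 ± 31.7 RPKM in siNC and 271.9 ± 12.99 in siQk, was called lower (-0.34, SE 0.076, FDR 0.0143), but not with library size alone or without siQk replicate 2 or 3. Gnb2, the next most abundant, was called lower (-0.32, SE 0.069, FDR 0.0131), but not with library size alone or without siQk replicate 1 or 2. The 2 called higher were Gnaz (0.43, SE 0.098, FDR 0.0152), not called without siNC replicate 1 or siQk replicate 3, and Gnb5 (0.35, SE 0.075, FDR 0.0126), not called without siQk replicate 1.

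In the arm from G12/13 to RhoA all 6 genes were tested, with 3 called lower and 2 higher. Rhoa, the small GTPase itself, was at 222.0, 217.2 and 205.4 RPKM in siNC and at 118.7, 120.0 and 111.3 in the siQk libraries (log2 fold change -1.04, SE 0.081, FDR 0.000633). The guanine nucleotide exchange factor gene Arhgef12 was lower (-0.47, SE 0.071, FDR 0.00400) and Arhgef1 of the same class was higher (0.42, SE 0.061, FDR 0.00374). Rock1, a kinase gene downstream of Rhoa, was lower (-0.41, SE 0.075, FDR 0.00760) but not with library size alone. Among 16 tested receptor kinases, arrestins and RGS proteins, which end receptor signals, 3 were called lower and 6 higher, with a median of -0.08. With a library left out, 1 to 4 were called lower and 2 to 5 higher, the fewest higher without siQk replicate 2. Rgs16 was lower (-1.78, SE 0.46, FDR 0.0238) and was not called when siNC replicate 1, siNC replicate 2 or any siQk library was left out. Rgs19 was higher (0.59, SE 0.11, FDR 0.00825). The arrestin genes moved apart, Arrb1 lower (-0.58, SE 0.10, FDR 0.00680) and Arrb2 higher (0.36, SE 0.098, FDR 0.0281), although Arrb2 lost its call in 5 of the 6 fits that left out a library. Adrbk1 (0.29, SE 0.073, FDR 0.0231) and Grk6 (0.42, SE 0.058, FDR 0.00318), the most abundant receptor kinase genes, were higher, although Adrbk1 lost its call without siNC replicate 1, siNC replicate 2, siQk replicate 2 or siQk replicate 3.

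**Figure D4:**
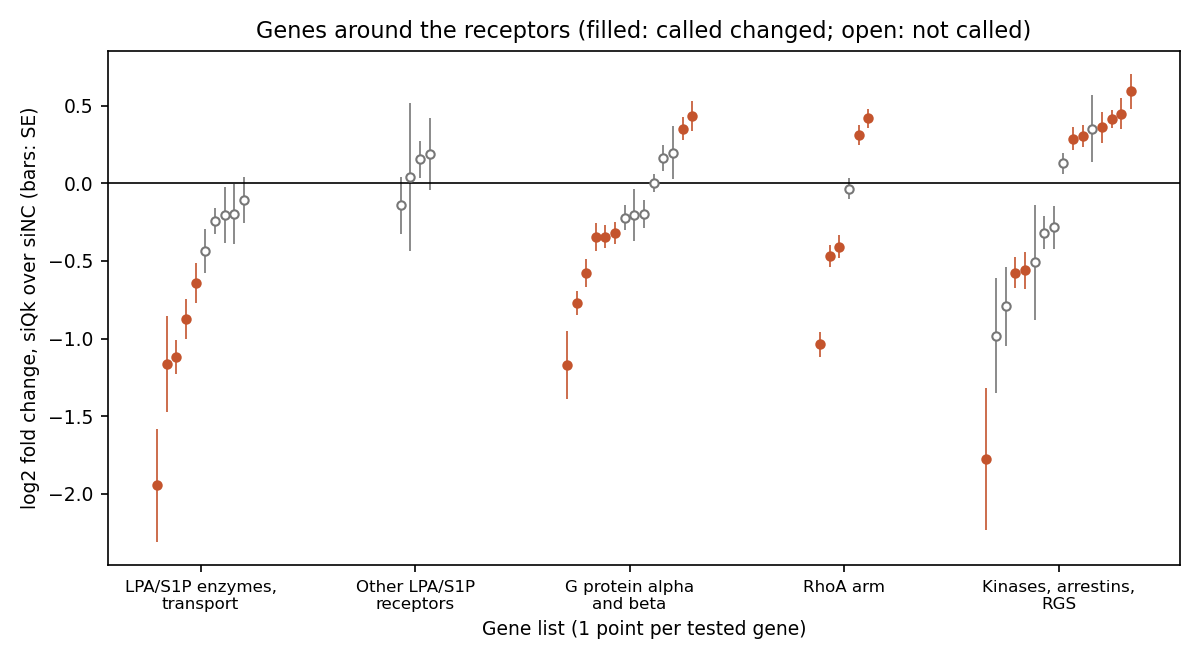
log2 fold change of siQk over siNC for each tested gene of 5 lists around the receptors, with bars for the standard error, filled points for genes called changed and open points for the rest. The 10 tested enzymes and transporters of LPA and S1P all lie below 0 (Ppap2a turns to 0.037 with library size alone), the other LPA and S1P receptors lie near 0, and the remaining 3 lists hold called genes on both sides.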

How the data were processed

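RNA of 3 siNC and 3 siQk mOPC cultures was sequenced by the authors from poly-A selected TruSeq v2 libraries, whose kit does not mark strand. OLego served the authors for alignment of the paired reads to mm10, and Quantas for counting. Versions, gene annotation and the treatment of strand are not given in the sources used here. For each library the authors deposited estimated counts (tags) per gene, not normalized and with decimals for 23.1% to 26.2% of genes. Beside them the authors deposited the exon length and the RPKM, which equals tags scaled by exon length and library total.

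Rounded tags entered the quasi-likelihood test of edgeR (R 4.3.3, edgeR 4.0.16, limma 3.58.1), without covariates, with TMM factors, on genes with an average logCPM over 0 (12505 genes). As in the study, calls needed P under 0.01 and an FDR (Benjamini-Hochberg) under 0.1. Means are given ± SD over 3 libraries, and SE is the absolute log2 fold change over the square root of F. The common biological coefficient of variation was 0.146. Pairs of replicate libraries differed by far more than sampling noise. The chi-square per degree of freedom was 184.8 to 326.4 for siNC pairs and 36.3 to 74.0 for siQk pairs. The p-values set the group difference against the spread between these libraries, where culture and, within siQk, siRNA cannot be told apart. The step was tested on simulated data that gave every gene this same coefficient of variation. It was therefore not tested for genes that vary more.

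The receptors and gene lists were chosen with earlier results of these data known. Named list genes were the called ones with the largest absolute fold change (up to 3 a list) and the most abundant (up to 2 a list). Outside that rule, Ppap2b, Gnaz, Gnb5, Arrb2, Rn45s and the overlapping genes Iqck and Pcbp4 were named after their values were seen. Symbols were matched directly or through older symbols, and Gper1 and Myrf were not matched. 3′UTRs were the longest annotated in GENCODE M21 (at least 50 bases), and lengths within 20% counted as similar. Replicate numbers were not treated as pairs in the main fit. Alternatives were a block for the replicate number, leaving out each library, thinning to the smallest library, DESeq2 1.42.0, the likelihood ratio and exact tests of edgeR, and other filters, normalizations, cutoffs, pseudocounts and 3′UTRs.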

Additional observations from a re-analysis of the deposited data

How the results depend on the processing

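The number of receptors called lower was 3 to 5 of those tested under the other tests, normalizations, filters and cutoffs, and 3 to 6 with a library left out, the highest without siNC replicate 3. With the replicate number as a block it was 2 (S1pr1 and Gprc5b), and Lpar1 at -2.63 and S1pr5 at -2.31 lost their calls. Whether the replicate numbers mark paired cultures is not given in the sources used here. Deviations from the group means correlated at -0.053, -0.15 and -0.34 between same-numbered libraries. With 3 libraries a group, these values cannot settle it. For the receptors, the median log2 fold change was -0.95 with no filter on low counts, since S1pr3 then entered, and -1.27 to -0.83 with a library left out (-0.83 without siNC replicate 2, where S1pr5 was not tested). No receptor fold change changed sign in any setting tried, and of the 59 called list genes 0 did. Over all genes, library size alone gave 1365 lower and 2989 higher, an FDR below 0.05 with a change of 1 or more on the log2 scale gave 946 calls (620 lower, 326 higher), and leaving out a library gave 2478 to 3704 calls (1470 to 2094 lower, 1008 to 1610 higher), the fewest without siQk replicate 1. The difference in the S1pr5 to S1pr1 ratio was 0.57 with a pseudocount of 1 RPKM, -0.90 with 0.01, -0.996 with none (added after seeing the data), and -0.79 to -0.042 with a library left out. The other ratios kept their sign, at 0.49 to 0.99 for S1pr3 over S1pr1, -1.77 to -0.53 for S1pr5 over S1pr3, -1.37 to -0.37 for Gpr37 over Gpr37l1 and -1.53 to -0.80 for Lpar1 over S1pr1 with a library left out. In the shortest annotated 3′UTRs, 3 receptors held a motif against 5 in the longest. Where not stated, the cause was not tested. Depth limits S1pr3 and S1pr5, which rest on 15 to 336 tags a library.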
